A study of Homo sapiens with 4 samples.

Results

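The myosin light chains and myosin-binding proteins described here are 10 genes of the 39323 in the expression tables: the light chain genes MYL1, MYL2, MYL3, MYL4, MYL6, MYL6B and MYLPF, and the genes MYBPC1, MYBPC2 and MYBPH of the myosin-binding protein family. They were chosen by name, and MYL1 was picked out as the largest rise shared by both cell lines. The changes of the members are therefore given as a description of these libraries. RNA came from RD and JR1, established cell lines of fusion-negative rhabdomyosarcoma, a tumour whose cells carry skeletal muscle lineage markers. Each line was infected with a lentivirus that expressed a scrambled control hairpin RNA (shSCR) or a hairpin RNA against SKP2 (shSKP2), the substrate-recognition subunit of a ubiquitin ligase. The labels call the genotype wild type in shSCR and SKP2 knockdown in shSKP2. Of each line and condition there was 1 poly-A library, 4 in all, and 1 hairpin against SKP2, so differences are without a replicate check and carry no p-value. The comparison addresses which muscle myosin genes the lines express when SKP2 is depleted.

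A myosin motor of muscle is built from heavy chains, each of which carries an essential and a regulatory light chain on its neck. Skeletal, cardiac, smooth muscle and non-muscle myosins differ in the light chain genes they draw on, though some of these genes are shared between types. The light chain genes of a cell are therefore only a partial guide to the types of myosin it is equipped to build. Myosin-binding proteins sit on the thick filament of the striated sarcomere, and their genes also differ between slow and fast muscle.

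Values are TPM (transcripts scaled by their length and to 1 total that is the same in each library). A change is the log2 ratio of TPM + 1, shSKP2 over shSCR within a line, a scale that understates the change of low genes. A gene was counted as changed at 1 or more on this scale, and 12985 genes with a 4-library mean of 1 TPM or more were tested. SKP2 itself was lower with shSKP2, at 7.4 against 92.8 TPM in RD and at 2.72 against 46.5 TPM in JR1, changes of -3.48 and -3.67. Short structural RNA genes took 58.6% of the TPM in RD shSCR, 69.1% in RD shSKP2, 66.5% in JR1 shSCR and 72.1% in JR1 shSKP2, and the tested genes had median changes of -0.27 (RD) and -0.21 (JR1). With these RNA genes removed and the TPM rescaled, the medians were 0.12 and 0.01. Changes on this second scale are given beside the first for the members that turn on it.

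Of the members, 7 passed the filter of 1 TPM and MYL2, MYL3 and MYBPC2 did not. MYBPC1 passed it only through JR1 shSKP2, so the members that passed are not an unselected set. MYL1 and MYLPF, the essential and the regulatory light chain genes of fast skeletal muscle, rose past the limit in both lines, and MYBPC1 and MYBPH rose past it in JR1. The count was 2 members in RD, where 1.08% of all tested genes rose, and 4 in JR1, where 1.78% did. Both lines shared 2 of the rises, against 0.539% of tested genes, and these shares bear on members that were picked with their values known. There were 0 falls past the limit among the members, where 7.37% of tested genes fell in RD, 9.05% in JR1 and 4.79% in both. Without the short structural RNA genes 15222 genes were tested, of which 670 rose and 526 fell in RD in place of 140 and 957. In JR1 747 rose and 1142 fell in place of 231 and 1175. MYL4 and MYBPC1 then joined the rises in RD and MYBPC2 fell in JR1. The median change of all 10 members was 0.24 in RD and 0.32 in JR1.

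**Figure D1:**
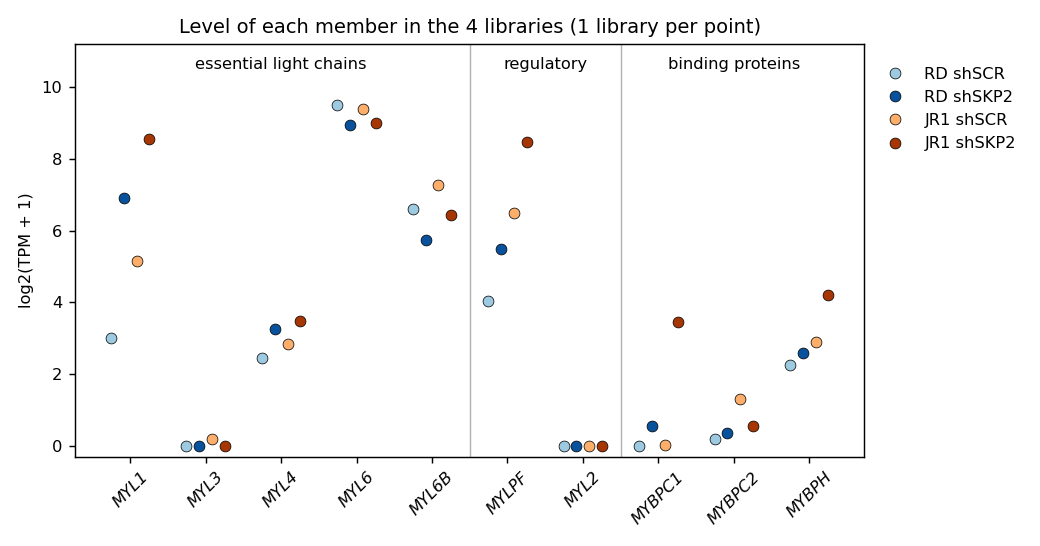
Level of each member as log2(TPM + 1), with 1 point for each of the 4 libraries and the genes grouped as essential light chains, regulatory light chains and myosin-binding proteins. MYL1 and MYLPF lie higher in shSKP2 than in shSCR in both lines, MYL6 and MYL6B lie lower, and MYBPC1 stands clear of 0 only in JR1 shSKP2.

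MYL1 lies on the minus strand of chromosome 2 (GRCh38, chr2:210290150-210315174) and gives 2 coding transcripts of 7 exons, 1049 and 870 bases long, which share 5 exons. Their starts are 11545 bases apart, and they encode a longer and a shorter form of the fast essential light chain. The tables give 1 value per gene, so the 2 forms were not told apart. The bases before the starts of the members that rose are shown here because they can be searched for words like those that myogenic transcription factors bind. RefSeq windows before a start (GRCh38.p14) were at hand for 7 of the 10 members, 10 windows in all, with MYLPF listed as MYL11. The 250 bases before each start were searched for the E-box CANNTG, the class of word bound by MYOD1 and MYOG, for its form CAGCTG, and for the MEF2-like word CTANNNNTAG. N stands for any base, so a match to the MEF2-like word need not be a word that MEF2 factors bind. All 3 words read the same way on both strands. Stretches that fall in an exon of the same gene are left out below, each sequence is written 5′ to 3′ on the strand of its gene, and capitals mark the matches.
MYL1 upstream start (chr2:210315175-210315424, minus strand): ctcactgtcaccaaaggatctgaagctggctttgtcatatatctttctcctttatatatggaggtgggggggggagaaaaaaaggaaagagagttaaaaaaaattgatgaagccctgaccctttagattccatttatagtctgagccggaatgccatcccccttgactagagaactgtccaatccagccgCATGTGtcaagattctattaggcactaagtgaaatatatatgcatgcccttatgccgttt
MYL1 downstream start (chr2:210303630-210303865, minus strand): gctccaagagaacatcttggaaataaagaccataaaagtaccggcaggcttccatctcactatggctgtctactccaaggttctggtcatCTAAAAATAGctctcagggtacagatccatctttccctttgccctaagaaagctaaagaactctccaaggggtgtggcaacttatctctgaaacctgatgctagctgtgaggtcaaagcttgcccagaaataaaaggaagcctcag
MYLPF downstream start (chr16:30372044-30372293, plus strand): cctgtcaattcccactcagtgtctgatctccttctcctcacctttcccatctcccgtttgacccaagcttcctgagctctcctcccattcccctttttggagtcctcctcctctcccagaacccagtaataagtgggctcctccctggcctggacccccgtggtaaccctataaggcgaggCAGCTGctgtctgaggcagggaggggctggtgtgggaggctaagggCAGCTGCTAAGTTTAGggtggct
MYBPC1 (chr12:101594721-101594848, plus strand): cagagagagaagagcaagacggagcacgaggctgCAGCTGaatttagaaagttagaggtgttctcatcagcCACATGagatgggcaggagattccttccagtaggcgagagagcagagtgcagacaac
MYBPH (chr1:203175827-203176076, minus strand): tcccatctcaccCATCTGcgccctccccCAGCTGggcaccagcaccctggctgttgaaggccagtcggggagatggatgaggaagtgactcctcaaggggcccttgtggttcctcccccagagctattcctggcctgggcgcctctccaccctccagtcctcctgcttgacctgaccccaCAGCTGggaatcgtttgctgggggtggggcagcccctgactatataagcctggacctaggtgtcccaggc
MYL6 (chr12:56158109-56158345, plus strand): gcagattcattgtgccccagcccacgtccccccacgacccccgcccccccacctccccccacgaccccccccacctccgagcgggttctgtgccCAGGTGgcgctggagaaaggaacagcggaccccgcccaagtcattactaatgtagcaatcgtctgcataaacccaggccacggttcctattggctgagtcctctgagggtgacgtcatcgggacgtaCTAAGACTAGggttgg

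The MYLPF window holds CAGCTG at positions -69 and -23 from the start, and the nearer of these touches a MEF2-like word without overlapping it. The upstream MYL1 window holds 1 E-box, which is not of the CAGCTG form, and the downstream one holds a MEF2-like word and 0 E-boxes. MYBPH has 3 E-boxes, 2 of them CAGCTG. The MYBPC1 window has 4 E-boxes, of which the 2 outside exons are shown and 1 is CAGCTG. MYL6, the non-muscle gene, is shown beside them because it also holds an E-box and a MEF2-like word. Among 35116 RefSeq windows of the same length, 61.8% hold at least 1 E-box, 28.3% at least 2, 10.4% at least 3 and 3.35% at least 4. CAGCTG is in 14% of them and the MEF2-like word in 2.36%. Of the windows not printed, the upstream start of MYLPF and the start of MYL6B hold 1 E-box each and the 2 windows of MYL3 hold 0 matches. A match is a word in the sequence, and binding at these starts was not analysed here.

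**Figure D2:**
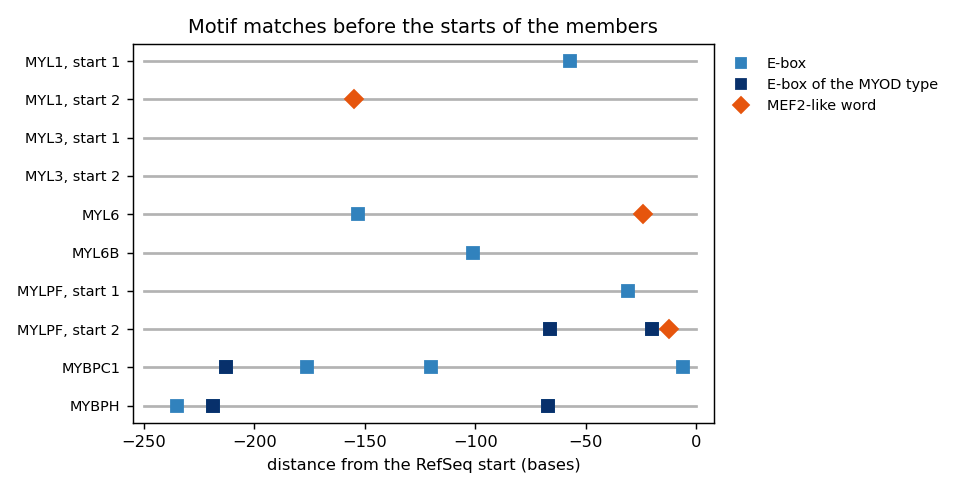
Matches to an E-box (squares, dark for CAGCTG) and to the MEF2-like word (diamonds) in the 250 bases before each RefSeq start of 7 members, by distance from the start in bases. The legend's MYOD type is only a label for CAGCTG, and the light squares are not thereby set apart from words that MYOD1 binds. The MEF2-like word is found before the downstream starts of MYL1 and MYLPF and before MYL6, and the MYL3 windows hold no match.

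MYL1 was at 7.10 TPM in RD shSCR, 118.7 in RD shSKP2, 34.4 in JR1 shSCR and 374 in JR1 shSKP2. Both shSKP2 libraries were higher than both shSCR libraries. The change was 3.89 in RD, a TPM ratio of 16.7, and 3.41 in JR1, a ratio of 10.9. Among the 11730 tested protein-coding genes this was the largest rise in RD, the fourth in JR1 and the largest by the smaller change of both lines. MYL1 had been picked out as the largest shared rise, so these ranks restate that choice and are no separate result. With the short structural RNA genes removed the changes were 4.41 and 3.70. JR1 had more MYL1 than RD in both conditions, 4.84 times as much in shSCR and 3.15 times in shSKP2. RD with shSKP2 was in turn above JR1 without it.

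MYL4, on chromosome 17 (chr17:47209017-47227650), encodes the essential light chain of the atrium and of embryonic skeletal muscle. It was at 4.49 and 8.51 TPM in RD and at 6.15 and 10.1 in JR1, each time in the order shSCR and shSKP2. Its values were higher with shSKP2 in both lines, with changes of 0.79 and 0.64 that stayed under the limit. In RD the change passed the limit on other scales, at 1.06 after centring on the median of all tested genes and 1.27 without the short structural RNA genes, while in JR1 it was 0.85 and 0.95.

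MYL6 encodes the essential light chain of smooth muscle and non-muscle myosin and MYL6B a related essential light chain, and the genes lie next to each other on chromosome 12 (chr12:56158359-56161579 and chr12:56152587-56157982). MYL6 was the highest member in all 4 libraries, at 720 TPM in RD shSCR, 494 in RD shSKP2, 673 in JR1 shSCR and 510 in JR1 shSKP2. MYL6B was at 96.9 and 52.4 TPM in RD and at 154 and 86.1 in JR1. Both genes were lower with shSKP2 in both lines and neither passed the limit. The changes of MYL6 were -0.54 and -0.40, and those of MYL6B -0.88 and -0.83. Without the short structural RNA genes they were -0.12 and -0.13 for MYL6 and -0.46 and -0.57 for MYL6B, so the change of MYL6 was smaller on that scale in both lines. Of the 634 stretches of 75 bases in the canonical transcript of MYL6, 16 (2.52%) also occur in transcripts of MYL6B. The canonical transcripts of the other members, that of MYL6B included, shared 0 such stretches with another gene.

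MYL3, the essential light chain gene of the ventricle and slow muscle (chr3:46857872-46863444), was listed at 0 TPM in 3 libraries and at 0.14 in JR1 shSCR. It did not reach the level at which a change can be read.

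MYLPF, on chromosome 16 (chr16:30370934-30377991), was at 15.6 TPM in RD shSCR, 44 in RD shSKP2, 88.7 in JR1 shSCR and 355 in JR1 shSKP2. Unlike MYL1, MYLPF was higher in JR1 shSCR than in RD shSKP2, so the conditions overlap across the lines and separate only within each line. The change was 1.44 in RD, a ratio of 2.82, and 1.99 in JR1, a ratio of 4. On the scale without short structural RNA genes the changes were 1.89 and 2.26. It ranked 34 in RD and 35 in JR1 among rises of the tested protein-coding genes. JR1 exceeded RD 5.69 times in shSCR and 8.05 times in shSKP2. MYL2, the regulatory light chain gene of slow muscle and the ventricle (chr12:110910845-110920579), was listed at 0 in all 4 libraries.

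MYBPC1 (chr12:101594849-101695841) encodes the myosin-binding protein C of slow skeletal muscle, with 32 exons in its canonical transcript of 4082 bases. It was listed at 0 TPM in RD shSCR, 0.46 in RD shSKP2, 0.01 in JR1 shSCR and 10.0 in JR1 shSKP2. Only JR1 shSKP2 held more than 1 TPM. The changes were 0.55 and 3.45, and no TPM ratio is given because the shSCR values were at or near 0. Their size depends on the added constant, since with 0.1 in place of 1 they were 2.49 and 6.53. The change of MYBPC1 in JR1 exceeded that in RD by 2.90, and a difference of at least this size in either direction was found in 0.0682% of the tested protein-coding genes. JR1 shSKP2 is the library that brought MYBPC1 past the filter and also the one that makes this difference. The percentage is thus a description and no separate evidence.

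MYBPH, on chromosome 1 (chr1:203167811-203175826), encodes myosin-binding protein H of skeletal muscle. It was at 3.78 TPM in RD shSCR, 4.98 in RD shSKP2, 6.48 in JR1 shSCR and 17.5 in JR1 shSKP2. JR1 shSKP2 stood above the other 3 libraries, which lay between 3.78 and 6.48 TPM. The changes were 0.32 and 1.3, and 0.76 and 1.65 without the short structural RNA genes. The difference of 0.98 between the lines was matched or exceeded in size by 2.22% of the tested protein-coding genes.

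MYBPC2 (chr19:50432892-50466321), the gene of myosin-binding protein C of fast skeletal muscle, went the other way in JR1. It was at 0.15 and 0.28 TPM in RD and at 1.48 and 0.46 in JR1, changes of 0.15 and -0.76. Without the short structural RNA genes the changes were 0.48 and -1.03. Its levels were near or under 1 TPM throughout. The 3 binding protein genes together summed to 3.93 TPM in RD shSCR, 5.72 in RD shSKP2, 7.97 in JR1 shSCR and 28.0 in JR1 shSKP2.

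**Figure D3:**
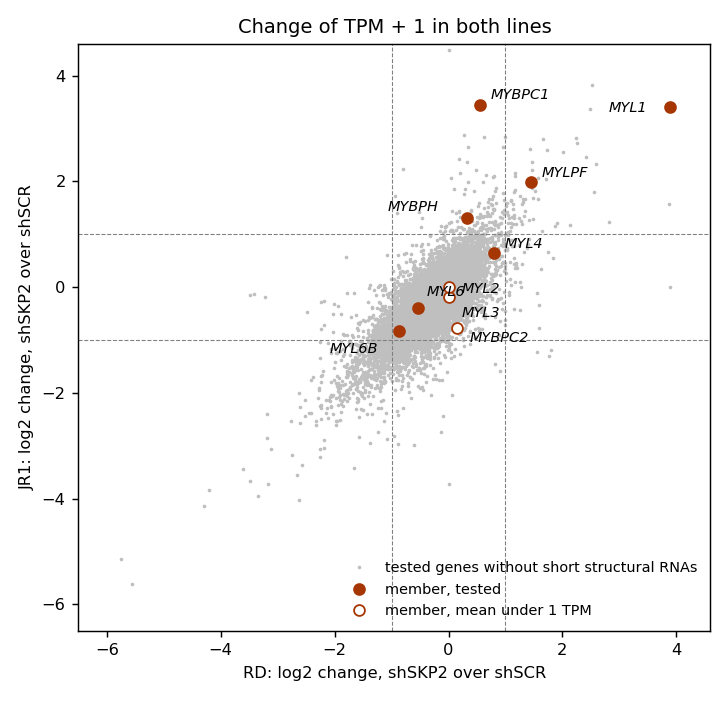
Change with shSKP2 in RD (horizontal) and JR1 (vertical), as log2 of the ratio of TPM + 1, for tested genes without short structural RNAs (grey) and for the members (filled when tested, open under a mean of 1 TPM). Dashed lines mark the limit of 1, MYL1 and MYLPF lie past it in both lines, and MYBPC1 and MYBPH past it in JR1.

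The members were also compared between the lines within a condition. In shSCR, 2 tested members were at least 1 higher in JR1 on the log2 scale, MYL1 by 2.13 and MYLPF by 2.44, where 3.45% of all tested genes were. In shSKP2 there were 4, MYL1 by 1.65, MYLPF by 2.98, MYBPC1 by 2.92 and MYBPH by 1.63, where 2.7% of tested genes were. MYBPC1 is counted here although it passed the filter only through JR1 shSKP2. There were 0 members lower in JR1 by this limit in either condition, where 6.5% of tested genes were lower in shSCR and 5.39% in shSKP2. Among the 6 members above 1 TPM in all 4 libraries, MYL6 was the closest in level between the lines, with differences of -0.10 and 0.05, and the first of these was 0.13 after centring and 0.21 without the short structural RNA genes.

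The light chain genes were set against each other within each library, since a share within a library does not depend on its scale. The pool held 13 light chain genes, 5 essential and 8 regulatory, which are the 7 light chain members with MYL5, MYL7, MYL9, MYL10, MYL12A and MYL12B. MYL1 and MYLPF together made up 1.89% of the pool in RD shSCR and 16% in RD shSKP2. In JR1 they made up 9.63% in shSCR and 44.6% in shSKP2. The fast skeletal genes held a larger share with shSKP2 in both lines. MYL1 had been picked out as the largest shared rise, so its part of that share restates the choice and is no separate result. The summed TPM of the pool was 1202 and 1016 in RD and 1278 and 1634 in JR1.

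The essential and the regulatory genes were then taken as separate pools, a split chosen after the values were seen. The share of MYL1 again restates its choice. MYL1 was 0.857% of the essential transcripts in RD shSCR, 17.6% in RD shSKP2, 3.96% in JR1 shSCR and 38.2% in JR1 shSKP2. Over the same libraries MYL6 was 86.9%, 73.3%, 77.5% and 52.0% of them. MYL6 therefore remained the most abundant essential light chain transcript in all 4 libraries. MYLPF was 4.18%, 12.8%, 21.6% and 54.3% of the regulatory transcripts, in the same order. In JR1 shSKP2 it exceeded all other regulatory genes combined, while in RD shSKP2 MYL12A held 41.6% and MYL12B 33.8%.

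**Figure D4:**
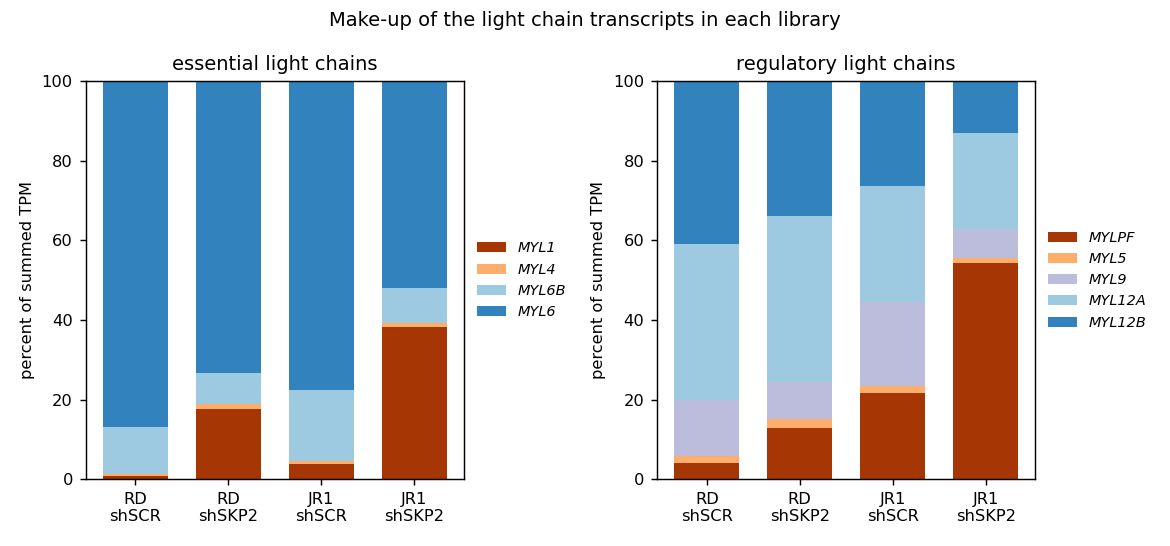
Share of each gene in the summed TPM of the 5 essential (left) and 8 regulatory (right) light chain genes, in percent, with 1 bar per library and without MYL2, MYL3, MYL7 and MYL10, which were at or near 0. The share of MYL1 rises from 0.857% to 17.6% in RD and from 3.96% to 38.2% in JR1, and that of MYLPF from 4.18% to 12.8% and from 21.6% to 54.3%.

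The ratio of summed essential to summed regulatory transcripts moved less than the shares, at 2.22 in RD shSCR, 1.97 in RD shSKP2, 2.11 in JR1 shSCR and 1.5 in JR1 shSKP2. Within the fast skeletal pair the balance differed, since MYL1 over MYLPF was 0.455 and 2.7 in RD and 0.387 and 1.06 in JR1. MYLPF was the higher of the pair in both shSCR libraries and MYL1 the higher in both shSKP2 libraries. MYL6 stood 101 times above MYL1 in RD shSCR and 4.16 times in RD shSKP2, and 19.6 and 1.36 times above it in JR1.

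Other light chain and myosin-binding protein genes did not pass the limit in either line. Of the 8 in the list, 4 were tested, and their median change was -0.22 in RD and -0.17 in JR1, near that of all tested genes. MYL9, the smooth muscle regulatory light chain, was the lowest, with changes of -0.68 and -0.80. MYL5 was the highest in RD at 0.28, and MYL12A, a non-muscle regulatory light chain, in JR1 at 0.39. MYL7 of the atrium was listed at 0 in all 4 libraries.

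Kinases, phosphatase subunits and regulators of the light chains held 1 change past the limit among 14 genes, of which 11 were tested. PPP1R12B, a targeting subunit of myosin phosphatase, was at 3.09 and 5.10 TPM in RD and at 3.11 and 8.02 in JR1, changes of 0.58 and 1.13. It was the highest of the list in both lines, and without the short structural RNA genes its change in RD was 1.05. The lowest were ROCK2, a kinase that acts on the phosphatase, at -0.81 in RD and MYLK2, the skeletal muscle light chain kinase, at -0.74 in JR1. MYLK2 was under 2 TPM in each library, at 0.47 and 0.46 in RD and at 1.98 and 0.78 in JR1. Over the tested genes of this list the medians were -0.27 (RD) and -0.17 (JR1).

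Summed as a list, the striated muscle heavy chain genes were far lower in level than MYL1 and MYLPF together. The 10 striated muscle heavy chain genes summed to 3.65 TPM in RD shSCR, 6.90 in RD shSKP2, 10.8 in JR1 shSCR and 32.9 in JR1 shSKP2. MYL1 and MYLPF summed to 22.7, 163, 123 and 729 TPM, which is 6.22, 23.6, 11.4 and 22.1 times the heavy chains. Only 3 of the 10 were tested. MYH8, the perinatal heavy chain, was at 0.66 and 3.56 TPM in RD and at 0.38 and 6.13 in JR1, and rose past the limit in both lines with changes of 1.46 and 2.37. MYH2, a fast heavy chain, and MYH3, the embryonic one, rose past it in JR1 with changes of 1.99 and 1.15, against 0.34 and -0.13 in RD. MYH2 was at 0.41 and 0.79 TPM in RD and at 0.59 and 5.31 in JR1. It passed the filter only through JR1 shSKP2, the library that also makes its rise. MYH3 had the lowest change of the tested 3 in both lines, and its levels were 1.97 and 1.71 TPM in RD and 8.39 and 19.9 in JR1. Among all 10, the lowest changes were -0.20 for MYH7 in RD and -0.07 for MYH6 in JR1, both under 1 TPM throughout.

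Of the 4 smooth muscle and non-muscle heavy chain genes, 3 were tested and MYH14 fell past the limit in JR1, with a change of -1.24 there and -0.82 in RD. Their medians were -0.65 (RD) and -0.43 (JR1). MYH9 and MYH10, the other non-muscle genes, had changes of -0.65 and -0.62 in RD and of -0.43 and -0.15 in JR1. MYL6 over the sum of MYH9 and MYH10 was 3.52 and 3.8 in RD and 4.54 and 4.53 in JR1, so this light chain and the non-muscle heavy chains kept nearly the same proportion with shSKP2.

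Myogenic transcription factors had medians of 0.36 (RD) and 0.98 (JR1) over the 5 of 7 that were tested. MYF5 was listed at 0 in all 4 libraries. MEF2C was at 0.98 and 2.05 TPM in RD and at 1.76 and 18.7 in JR1, with changes of 0.62 and 2.84, and MEF2A had changes of 0.36 and 1.08. On the scale of the deposited TPM both passed the limit in JR1 and not in RD, and the difference between the lines was not tested. Without the short structural RNA genes MEF2C passed it in RD as well, at 1.18, and MYOG passed it in both lines, at 1.3 and 1.25. MYOG, the factor of early differentiation, had changes of 0.87 and 0.98, the first being the highest of the list in RD. MYOD1 was at 87.0 and 93.8 TPM in RD and at 101 and 131 in JR1, and its change of 0.38 was the lowest tested in JR1, as was that of MEF2D, 0.04, in RD.

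Genes for the assembly and folding of myosin split by tissue. UNC45B, the muscle chaperone of the myosin head, was at 0.48 and 3.86 TPM in RD and at 4.05 and 20.0 in JR1, changes of 1.72 and 2.05. SMYD1, a muscle methyltransferase that takes part in thick filament assembly, was at 1.55 and 11.0 TPM in RD and at 4.55 and 38.5 in JR1, changes of 2.23 and 2.83. These 2 of the 5 genes rose past the limit in both lines. UNC45A, the form found in many tissues, was the lowest of the list with changes of -0.48 and -0.69.

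**Figure D5:**
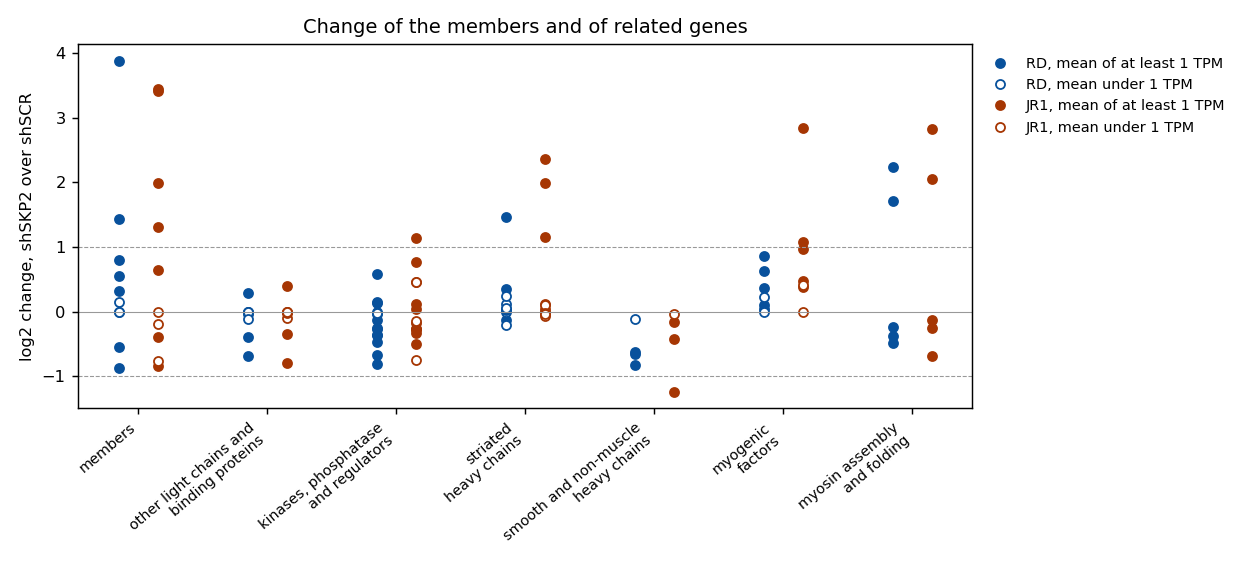
Change with shSKP2 in RD (blue) and JR1 (brown), as log2 of the ratio of TPM + 1, for the members and the 6 lists of related genes, filled where the mean was 1 TPM or more and open where it was lower. Dashed lines mark the limit of 1, and the points past it are the skeletal muscle genes of the text, PPP1R12B, MEF2A and, below it, MYH14.

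The tested protein-coding genes nearest to 4 members in profile were found by the distance between log2(TPM + 1) values over the 4 libraries after the mean of each gene was taken off. For MYL1 they were MYOM1 (myomesin of the sarcomere M-line), SMYD1, HSPB3 (a small heat shock protein), C1orf105 and LDB3 (a Z-disc protein), at distances of 1.21 to 1.55. MYOM1, the nearest, was at 0.32, 6.43, 1.21 and 21.9 TPM in the order RD shSCR, RD shSKP2, JR1 shSCR and JR1 shSKP2. None of the 5 therefore came as close to MYL1 as the nearest genes came to the other members.

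For MYLPF the nearest genes were NPNT (an extracellular matrix protein), UNC45B, FBXO32 (a muscle ubiquitin ligase subunit), ARPP21 and MYOZ2 (a Z-disc protein), at 0.77 to 1.06. For MYBPC1 they were MEF2C, GJA5 (a gap junction protein), TNNC2 (troponin C of fast muscle), CASQ2 (a calcium-binding protein of the sarcoplasmic reticulum) and CKM (muscle creatine kinase), at 0.45 to 0.64. For MYBPH they were MME (a membrane peptidase), CAMK2A, ABCC9 (a potassium channel subunit), FLVCR2 and ACTN2 (an actinin of the Z-disc), at 0.19 to 0.28. GJA5, CASQ2, CAMK2A and ABCC9, like MYBPC1, passed the filter only through JR1 shSKP2. In the order RD shSCR, RD shSKP2, JR1 shSCR and JR1 shSKP2, GJA5 was at 0.09, 0.31, 0.1 and 7.13 TPM. CASQ2 was at 0.11, 0.4, 0.18 and 6.39 TPM. The likeness of GJA5 and CASQ2 to MYBPC1 thus rests mainly on 1 library. A profile of 4 values is shared by many genes, and these names describe likeness over 4 libraries only.

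The label of muscle tumour was checked against marker genes. All 6 skeletal muscle lineage markers were tested, with summed levels of 418, 579, 603 and 812 TPM in the order used above. None of them passed the limit on the scale of the deposited TPM. Without the short structural RNA genes MYOG passed it in both lines, at 1.3 and 1.25. On that scale CHRNA1 passed it in RD, at 1.10, and not in JR1, at 0.84. The sum was higher with shSKP2 in both lines, and much of it was CHRNA1, an acetylcholine receptor subunit, at 196 and 314 TPM in RD and at 284 and 425 in JR1. CDH15, MYOD1 and MYOG were also higher with shSKP2 in both lines, while CHRND was lower in both, with changes of -0.76 and -0.60, and DES had changes of 0.14 and -0.50. The 8 smooth muscle and fibroblast markers summed to 368, 100, 472 and 89.8 TPM, lower with shSKP2 in both lines, where COL1A1 and THY1 fell past the limit in both and TAGLN in RD, where its change was -1.22, and -0.88 without the short structural RNA genes. The defining smooth muscle gene MYH11 was at 0.11 TPM or less, ACTA2 at 1.12 or less, and DCN of fibroblasts at 0.06 or less. Other markers of this list were expressed. COL1A1 was at 307 and 77.0 TPM in RD and at 387 and 65.8 in JR1. THY1 was at 34.0 and 11.4 TPM in RD and at 66.5 and 12.5 in JR1. TAGLN was at 18.5 and 7.37 TPM in RD and at 12.1 and 7.24 in JR1. CNN1 was at 6.29 TPM or less and PDGFRB at 2.99 or less. The 6 cardiac markers summed to between 15.0 and 20.4 TPM, of which NKX2-5 made up most, and MYL7 was listed at 0. The part of these marker levels in the changes of the members was not tested, and in bulk RNA a larger number of cells that express a gene and more of its RNA per cell cannot be told apart.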

How the data were processed

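The authors extracted poly-A RNA, made directional libraries, read pairs of 150 bases and aligned them to GRCh38, and per the labels the tools were STAR 2.7.9a and RSEM 1.3.2. They deposited 1 TPM value per gene and library, with 2 decimals and a sum of 1e+06. Read counts cannot be had from TPM, which leaves the depth unknown and allows no interval or count test. The TPM were used as deposited. Changes, the filter and the limit are defined in the report. The members and lists were chosen with earlier results of these data known. The named genes were all members, SKP2, the genes of each list that passed the limit with the highest and lowest, and the 5 nearest profiles of 4 members, and the other marker, heavy chain and light chain genes were named after their values were seen. Short structural RNA genes (1091) were found by RefSeq type and symbol. Coordinates are those of the deposited tables, and exons came from GENCODE. The alternatives were a pseudocount of 0.1 TPM, centring on the median, removal of these RNA genes, all genes above 0 TPM, a mean of at least 5 TPM, a limit of 1.5-fold and, for the shares, the 7 light chain members alone. The code that makes the calls was tested on simulated data, which does not give the error of a single library. Software was matplotlib 3.10.9, numpy 2.4.6, pandas 2.3.3 and Python 3.11.15.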

Additional observations from a re-analysis of the deposited data

Results flagged for a closer look

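Among the members and listed genes that reached 1 TPM in a library, 7 had changes of opposite sign in the lines. Each line and condition had 1 library, so these differences were not tested. For MYBPC2 the changes were 0.15 (RD) and -0.76 (JR1), which differ by -0.92, and they were 0.48 and -1.03 without the short structural RNA genes. MYH3 had -0.13 and 1.15, a difference of 1.29. MYL12A had -0.03 and 0.39, a difference of 0.42. MYLIP, a ubiquitin ligase named for its binding of myosin regulatory light chain, had -0.48 and 0.11, a difference of 0.59. CALM3, a calmodulin gene, had -0.26 and 0.04, a difference of 0.30. DES, the muscle intermediate filament gene, had 0.14 and -0.50, a difference of -0.64, and TNNI3 of cardiac troponin had -0.24 and 0.40, a difference of 0.64. Without the short structural RNA genes MYBPC2, MYLIP and DES kept opposite signs, at -0.09 and 0.38 for MYLIP and 0.56 and -0.25 for DES. On that scale MYH3 (0.18 and 1.47), MYL12A (0.39 and 0.66), CALM3 (0.16 and 0.31) and TNNI3 (0.02 and 0.78) had positive changes in both lines.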

How the results depend on the processing

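Each shSKP2 library was compared with the shSCR library of its own line. The labels give no replicate numbers, and each line and condition has 1 library. A fit over both lines with the line as a block, which leaves 1 residual degree of freedom, was not run. Single member values were compared under the pseudocount of 0.1 TPM, the centring and the removal of short structural RNA genes, 120 in all. Of these, 108 were counted as keeping their direction and side of the limit and 9 passed the limit. Another 3 moved across 0 (MYL3 in JR1 to 0.03 when centred, and MYL6 between the lines in shSCR), and 0 fell below the limit or reversed a called change. A value of 0 has no direction, and such values were counted among the 108. They include MYL2, which stood at 0.27 in RD when centred. Without the short structural RNA genes, 4 members rose in RD, 1 fell in JR1 and 4 were higher in JR1 shSCR. Of the 15222 genes tested on that scale, 670 rose in RD and 1142 fell in JR1. The share of all genes higher in JR1 shSCR was not computed on that scale or at 1.5-fold, so those member counts stand without a comparison. At a limit of 1.5-fold, 1 member fell in RD, 1 in JR1 and 1 in both, and 4 were higher in JR1 shSCR. Of the list medians, those of other light chain and binding protein genes were 0.0548 in RD and 0.0407 in JR1 when centred and 0.20 and 0.0841 without the short structural RNA genes. Those of kinases and phosphatase subunits were 0.13 in RD and 0.0263 in JR1 without them, and 0.0393 in JR1 when centred. Those of assembly genes were 0.0315 and 0.0806 when centred and 0.18 and 0.13 without them. The JR1 median of myogenic factors was 1.19 and 1.25 on these scales. That of striated heavy chains was -0.13 in RD at a mean of at least 5 TPM and 0.0732 in JR1 over all genes above 0 TPM, where other genes enter. Of the 7 light chain members alone, MYL1 and MYLPF made up 2.69%, 22.7%, 12.9% and 54.6% in RD shSCR, RD shSKP2, JR1 shSCR and JR1 shSKP2, from a smaller pool. Over all tested genes, the rises in RD (140) and JR1 (231) numbered 279 and 378 with a pseudocount of 0.1 TPM, 272 and 388 when centred, 670 and 747 without the short structural RNA genes, 87 and 143 at a mean of at least 5 TPM and 416 and 689 at 1.5-fold. The falls in RD (957) and JR1 (1175) numbered 458 and 710 when centred and 3011 and 3041 at 1.5-fold, and in RD 526 without the short structural RNA genes. The causes of the other shifts were not tested. Depth is unknown, and values near 0 TPM carry an error that cannot be given.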
